A study of Mus musculus with 2 samples.

Results

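The genes described here encode the enzymes of nucleotide excision repair, mismatch repair, base excision repair and classical non-homologous end joining, 38 genes in all. They were taken by name from these pathways. A gene was counted as measured where a probe set of the array carries its symbol and no other. This held for 22180 genes on the array, among them 33 of the 38, each with 1 probe set. Mpg, Tdg and Apex1 are covered here only by probe sets that also name another gene, and Gtf2h2 and Dclre1c have no named probe set in the annotation used, so these 5 genes are without a value.

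The study asked by which route the telomere-binding protein Pot1a affects DNA damage outside telomeres in long-term haematopoietic stem cells (LT-HSCs). LT-HSCs of male C57BL/6J mice aged 10 weeks were sorted from bone marrow as lineage-negative, Sca-1+, c-Kit+, CD48- and CD150+ cells, and kept for 1 day in SF-O3 medium with 100 ng/mL each of stem cell factor and thrombopoietin. They were then transduced with a retrovirus carrying either GFP alone (control-GFP) or full-length wild-type Pot1a with GFP (Pot1a), and GFP+ LT-HSCs were sorted for RNA after 3 further days. Each condition is 1 Affymetrix array, so no difference has a replicate, no test between conditions was possible, and how precise any value is depends on this small number of arrays. Both arrays share the cytokines, the viral vector and the ex vivo culture, Pot1a was driven by the vector at a level above that of the cell's own gene, and the labels do not say how many mice were pooled.

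Pot1a checked the labels, with a log2 intensity of 8.08 in the control-GFP array and 11.06 in the Pot1a array. The values are normalized intensities, and differences are log2 of Pot1a minus log2 of control-GFP. Intensities of different probe sets are not strictly comparable, so no repair gene is set against another by its level, and the median of all genes serves only as a rough mark of expression. All 8 LT-HSC markers with a value, among them Kit, Slamf1, Hlf and Mecom, were above the median of all genes, and so was Cd48, which the gate excludes at the protein level (7.59 and 7.84). T cell markers lay below that median (4 of 4 with a value), as did 2 of 3 B cell markers, with Cd79b at 7.20 and 6.78 as the exception, and 5 of 6 granulocyte and monocyte markers, with Lyz2 at 7.79 and 7.77 as the exception. Of the erythroid markers, Klf1 lay below it and Epor above it, and all 3 megakaryocyte markers lay above it. Summed over each list, intensities were 146 in control-GFP and 142 in Pot1a cells for T cell, 212 and 172 for B cell, 443 and 440 for granulocyte and monocyte, 209 and 191 for erythroid and 1580 and 1577 for megakaryocyte markers. Marker differences ranged from -0.42 for Cd79b to 0.32 for Gata2. Of the 8 LT-HSC markers, 3 were lower and 5 higher in Pot1a cells. Procr was lower (7.63 and 7.30, -0.33) and Gata2 higher past the fold threshold given below. The part of marker differences in the results below was not tested.

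Cells carry separate repair routes for separate kinds of damage. Nucleotide excision repair cuts out a short stretch of DNA around bulky lesions, base excision repair replaces single oxidized, deaminated or alkylated bases, mismatch repair removes errors of replication, and end joining ligates double-strand breaks without a template. Quiescent haematopoietic stem cells are known to rely on end joining when they repair breaks, and loss of several excision, mismatch and end-joining genes is known to reduce the function of these cells in mice.

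Messenger RNAs of the repair genes differed little between the arrays and moved in both directions. The mean of both arrays lay at or above the median of all genes for 32 of the 33 genes, and 11090 genes in all passed this filter. Of the 32, 18 (56.2%) were lower and 14 (43.8%) were higher in Pot1a-transduced cells, against 48.8% lower and 50.1% higher among all genes that passed. Their median difference was -0.034, a level of 97.6% of that in control-GFP cells, beside 0.0011 for all genes that passed. No repair gene differed by 2-fold, as 0.0271% of all genes did. The fold threshold used below was 0.32 on the log2 scale, in either direction. At this threshold, Nudt1 and Nthl1 were lower, 2 of 32 beside 4.91% of all genes, and Rad23b was higher, 1 of 32 beside 4.02% of all genes. In both directions together this makes 9.38% of the repair genes and 8.93% of all genes, so the share past the threshold was near the background.

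The spread within the arrays gives a scale for these differences. Where 372 other genes had several probe sets that passed the filter, the differences of probe sets of the same gene had a pooled SD of 0.23, and in 44.4% of these genes they had opposite signs. This SD holds technical spread within these arrays, any difference between the transcripts that the probe sets read, and no spread between samples. The differences of all genes that passed the filter had a smaller SD, 0.19. A difference larger than the SD between probe sets is therefore not shown to be reproducible. Of the 32 repair genes that passed the filter, 8 (25.0%) differed from 0 by more than the SD between probe sets, beside 21.6% of all genes that passed. The 8 were Nudt1, Nthl1, Polb, Msh6 and Gtf2h5, which were lower, and Rad23b, Gtf2h1 and Gtf2h3, which were higher. In RNA of a sorted population, fewer cells that express a gene and less RNA per cell cannot be told apart.

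**Figure D1:**
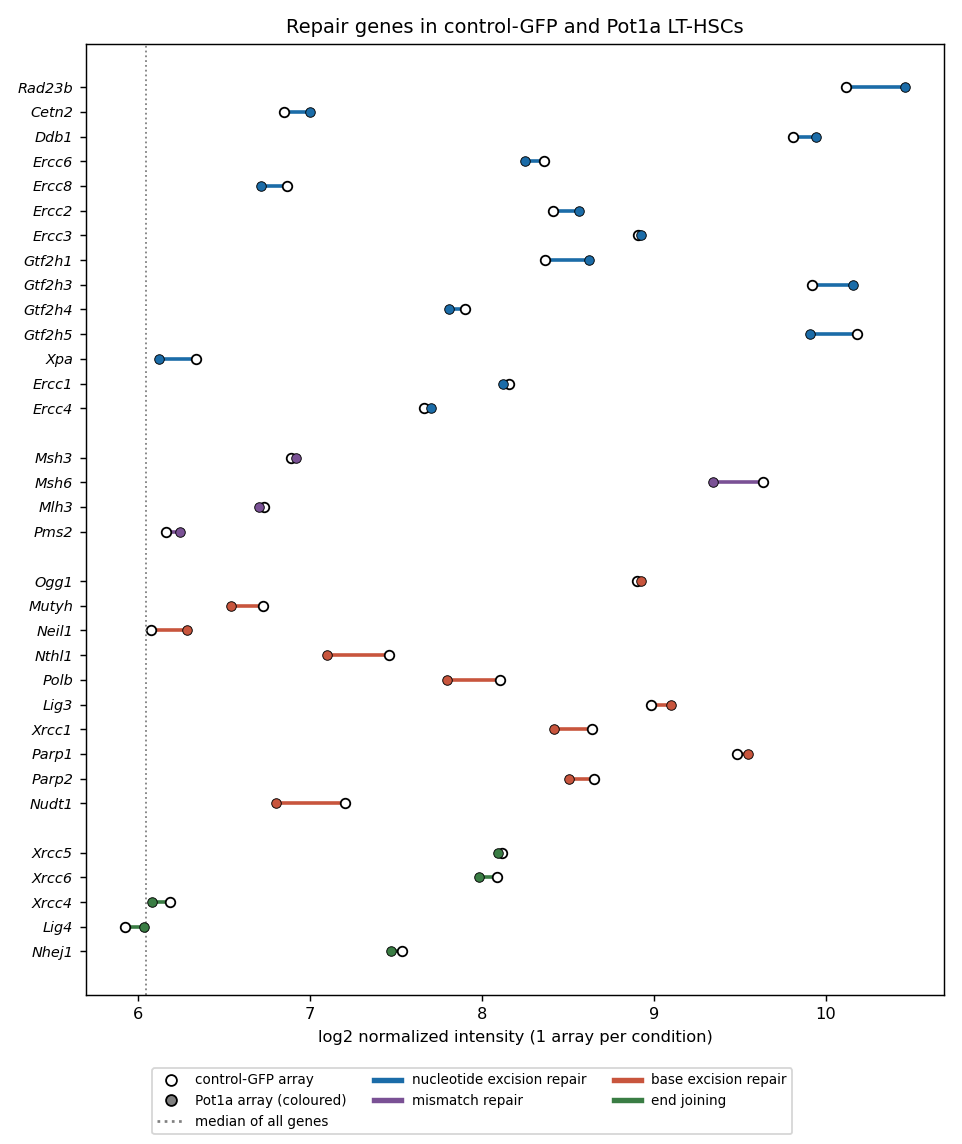
Log2 normalized intensity of the 33 repair genes with a value in the control-GFP array (open circles) and in the Pot1a array (filled circles), 1 array per condition, so no error bars can be drawn; colours give the pathway and the dotted line the median of all genes (6.04). The pairs of circles lie close together in every pathway, with the widest gaps for Nudt1, Nthl1 and Rad23b.

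In nucleotide excision repair, 8 of 14 genes were higher and 6 lower (median difference 0.030). The 3 repair genes of damage recognition were higher, whereas Xpc, the lesion sensor, which is not among the 38, was lower (-0.13). Rad23b, which encodes a ubiquitin-like protein that stabilizes the lesion sensor XPC, stood at 10.12 in the control-GFP array and 10.46 in the Pot1a array, a level of 127% (difference 0.34). This was the highest difference of the 32 repair genes that passed the filter, and 3.21% of all genes that passed had a higher one. Cetn2, which encodes the centrin bound to XPC and is also a protein of centrioles, stood at 6.85 and 7.0 (0.15). Ddb1, which encodes the adaptor of the CUL4 ubiquitin ligases that acts on damage by ultraviolet light, stood at 9.81 and 9.95 (0.13). The last of these differences is smaller than the SD between probe sets, as is that of Cetn2.

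Transcription-coupled repair starts where RNA polymerase stalls at a lesion. Both of its genes were slightly lower. Ercc6, which encodes the chromatin remodeller CSB, was at 8.36 in control-GFP and 8.25 in Pot1a cells (-0.11), and Ercc8, which encodes the ubiquitin ligase subunit CSA, at 6.87 and 6.71 (-0.15).

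TFIIH is the complex that opens the DNA around a lesion and also at promoters, and its core subunits act together. Differences of their messenger RNAs spread over 0.53 on the log2 scale, and 4 of the 6 measured were higher. Gtf2h1, the p62 subunit, stood at 8.37 and 8.62 (0.25), and Gtf2h3, the p34 subunit, at 9.92 and 10.16 (0.24). Gtf2h5, the smallest subunit (TTDA), which stabilizes the complex, went the other way, from 10.18 in control-GFP cells to 9.91 in Pot1a cells, a level of 82.5%. The helicase genes Ercc2 (XPD) and Ercc3 (XPB) differed by 0.15 and 0.020, and Gtf2h4, the p52 subunit that binds XPB, by -0.094. The genes of the kinase module of TFIIH, which are not among the 38, were also on both sides of 0, with Ccnh at 0.10, Cdk7 at -0.13 and Mnat1 at -0.15.

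Among the later steps, Xpa, which verifies the lesion, was at 6.34 and 6.12 (-0.22), near the lower end of the values kept. Ercc1 and Ercc4 encode the subunits of the nuclease that cuts on the 5′ side of the lesion, and they differed by -0.036 and 0.041. Both of these values are far below the SD between probe sets.

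In mismatch repair, 2 of 4 genes were lower and 2 higher (median difference -0.0030). The exception in size was Msh6, the partner in the MutS alpha complex that recognizes single mismatches, at 9.64 in control-GFP and 9.34 in Pot1a cells, a level of 81.6% (-0.29). Msh3, which takes its place in the MutS beta complex for larger loops, was at 6.89 and 6.92 (0.027). The MutL genes Mlh3 and Pms2, whose products nick or process the strand to be removed, differed by -0.033 and 0.083.

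In base excision repair, 6 of 10 genes were lower and 4 higher (median difference -0.17, a level of 89.1%). Among the repair genes that passed the filter, this median lay furthest from 0 of the 4 pathways. It did not at a stricter filter or with other genes of the pathways pooled, both given below. The lower genes were spread over several steps. Nudt1 does not act on DNA but hydrolyses oxidized purine nucleotides before they are built in. It stood at 7.20 in the control-GFP array and 6.80 in the Pot1a array, a level of 75.8% (-0.40). This was the lowest difference of the 32 repair genes that passed the filter, and 2.25% of all genes that passed had a lower one.

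The glycosylases, which cut the damaged base from the sugar, were on both sides of 0. Nthl1, which removes oxidized pyrimidines, was at 7.46 and 7.10, a level of 77.8% (-0.36). Mutyh, which removes adenine paired with oxidized guanine, was at 6.73 and 6.54 (-0.19). Neil1, which also removes oxidized pyrimidines, was higher, at 6.07 and 6.29 (0.21), and Ogg1, the glycosylase for oxidized guanine, differed by 0.027. The signs of these enzymes for oxidized bases were mixed, but only Nthl1 differed by more than the SD between probe sets. Neil1 lay close to the median of all genes in the control-GFP array.

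After the base is removed, the gap is filled and sealed. Polb, which encodes the gap-filling DNA polymerase, stood at 8.10 and 7.80, a level of 80.7% (-0.31), just short of the fold threshold. Xrcc1, the scaffold that binds both the polymerase and the ligase, stood at 8.64 and 8.42 (-0.22). Lig3, the ligase that XRCC1 carries, was higher, at 8.98 and 9.10 (0.12). The differences of Xrcc1 and Lig3 are both smaller than the SD between probe sets, so their opposite signs do not establish different directions. Parp1 and Parp2, the sensors of single-strand breaks, differed by 0.063 and -0.15.

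In end joining, all differences lay between -0.11 and 0.11. Xrcc5 and Xrcc6 encode Ku80 and Ku70, the ring that binds broken ends, and were at 8.12 and 8.10 (-0.023) and at 8.09 and 7.98 (-0.11). Xrcc4, the partner of the ligase, was at 6.18 and 6.08 (-0.10), and Nhej1, which encodes XLF, at 7.53 and 7.47 (-0.063). Lig4, the ligase itself, was the only repair gene that did not pass the filter, at 5.92 in control-GFP and 6.03 in Pot1a cells (0.11). The 4 genes that passed the filter were all lower, with a median difference of -0.083, beside 48.8% lower among all genes that passed. With Lig4, 4 of 5 measured genes were lower, and the median was -0.063. Each of these 5 differences is smaller than the SD between probe sets (0.23), so their signs do not establish a direction for the pathway. Of 8 other end-joining genes that passed the filter, from the list given below, 5 were lower, 2 higher and 1 equal.

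**Figure D2:**
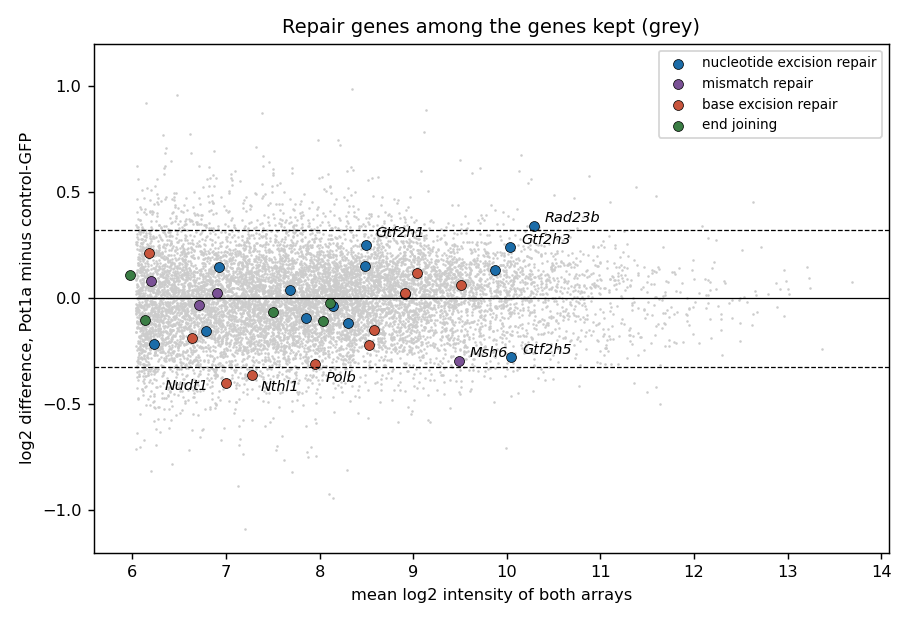
Log2 difference (Pot1a minus control-GFP, vertical axis) against the mean log2 intensity of both arrays (horizontal axis) for the 33 repair genes (coloured by pathway) and all 11090 genes that passed the filter (grey); dashed lines mark the fold threshold (0.32 and its negative), each point is 1 probe set, and genes beyond 1.2 on the vertical axis, such as Pot1a, are off the plot. The repair genes lie within the grey cloud, with Rad23b above the upper line and Nudt1 and Nthl1 below the lower line.

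Other genes of the same pathways, from a list of 37 that are not among the 38, served as a comparison. Of these, 31 had a value and 29 passed the filter, with 16 lower, 12 higher and 1 equal, and a median of -0.025. Past the fold threshold were Cul4b, which encodes a scaffold of the CUL4 ubiquitin ligases, at 8.60 and 9.07 (0.46), Ung, which encodes the glycosylase for uracil, at 7.15 and 7.48 (0.34), and Aptx, which encodes an end-processing enzyme that binds XRCC1, at 6.75 and 6.39 (-0.36). Trp53bp1, which encodes 53BP1, the protein whose foci the study counted as damage, differed by 0.069.

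In base excision repair the other genes had a median of 0.073 (11 genes, 5 lower and 6 higher), beside -0.17 for the 10 repair genes. The difference between these lists was not tested. With both lists pooled, 11 of 21 genes were lower and the median was -0.056. In end joining the pooled median was -0.078 (12 genes, 9 lower, 2 higher and 1 equal), further from 0 than that of base excision repair. In mismatch repair it was -0.029. In nucleotide excision repair the pooled median was 0.030 over the 22 genes that passed the filter, the same value as for the 14 genes alone. Over all 23 measured genes of that pathway it was 0.020. Protein assemblies of lesion recognition can be completed from this list, and their members were picked after the values were seen. Around the sensor, Xpc itself differed by -0.13, while its partners Rad23b and Cetn2 were higher. In the CUL4 ligases, Cul4a was higher by 0.21 and Cul4b by 0.46, and Ddb1, as given above, by 0.13, while Ercc8, a substrate receptor of these ligases, was lower (-0.15). Rbx1 and Ddb2, also of these ligases, were covered only by probe sets that name another gene.

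**Figure D3:**
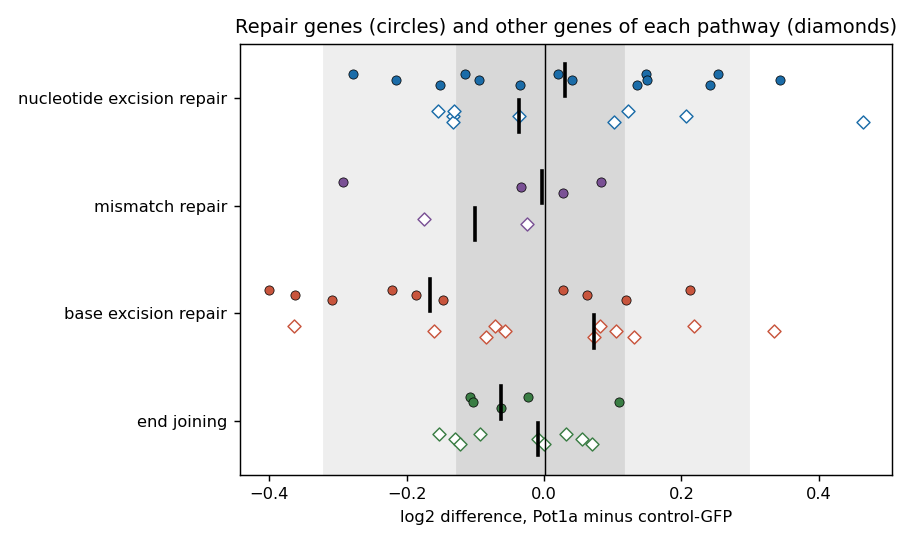
Log2 difference (Pot1a minus control-GFP, horizontal axis) of the measured repair genes (filled circles) and of other genes of the same pathway (open diamonds). Short vertical bars mark their medians over all measured genes, also those below the filter. Shading spans the middle 50% (dark) and middle 90% (light) of all 11090 genes that passed the filter. The thin vertical line is the median of these 11090 genes (0.0011). Most symbols fall in the shaded range. The medians of circles and diamonds lie on opposite sides of 0 in base excision repair (-0.17 and 0.073) and in nucleotide excision repair (0.030 and -0.036).

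Several repair genes are expressed most in S phase, so genes of proliferating cells were read beside them. Of 11 such genes with a value, 6 were lower and 5 higher (median difference -0.016), with a range from -0.20 for Mcm7 to 0.22 for Ccna2. Mki67 stood at 11.21 and 11.35, and Pcna at 11.76 and 11.63. Whether proliferation has a part in the differences of single repair genes was not tested.

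Promoter sequences of RefSeq (build GRCm38.p6, from 250 bases before to 50 bases after each start) were matched to 36 of the 38 genes. POT1 binds single-stranded telomere repeats, so the repeat TTAGGG was searched on both strands. It occurred in the window of 7 of the 36 repair genes (19.4%) and of 12% of all 27025 genes with a window. The share of all genes includes genes that did not pass the filter, and a share among those that passed was not computed. A match is a description of these letters and does not show binding. The sites are shown with 30 bases each, on the strand of the gene, with the repeat or its reverse complement in capitals.
Ddb1, chr19:10605352-10605381 (+): gcaggcggccacTTAGGGcgtagcagacca
Gtf2h4, chr17:35673818-35673847 (-): cttgcggtgcctTTAGGGatttgtagtcag
Gtf2h5, chr17:6079698-6079727 (+): tagtaacctgcgCCCTAAcccagcggcagt
Gtf2h5, chr17:6079754-6079783 (+): ttgaccccgcccTTAGGGcccgccccagag
Nhej1, chr1:75125328-75125357 (-): tttcgtttcaacTTAGGGcaacaggaaagg
Ogg1, chr6:113326996-113327025 (+): ggagagcggagtggggcgtTTAGGGgtttg
Parp2, chr14:50807666-50807695 (+): gagcccggTTAGGGccgcgggaggcccaag
Parp2, chr14:50807816-50807845 (+): taaatttttcgtTTAGGGtgatttcccaca
Xrcc6, chr15:82016291-82016320 (+): aagcgttccagtTTAGGGaacagggggtgg

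The 7 genes with the repeat had a median difference of -0.094 and the 24 measured genes with a window that lacks it a median of 0.0021. Ddb1 and Ogg1 were higher, and Gtf2h5, Parp2, Xrcc6, Gtf2h4 and Nhej1 were lower, by the values given above. Of the 7, only Gtf2h5 differed by more than the SD between probe sets. Parp2, whose window like that of Gtf2h5 holds the repeat at more than a single site, differed by -0.15. The difference between genes with and without the repeat was not tested.

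Other motifs of housekeeping promoters were common in these windows. The GC box GGGCGG was found for 28 of 36 repair genes (77.8%) and 38.2% of all genes, CCAAT for 21 (58.3%) and 41.1%, the ETS motif CCGGAAG for 10 (27.8%) and 9.93%, and the NRF1 motif for 9 (25.0%) and 5.19%. Of the E2F motifs, TTTGGCGC was found only for Msh3 (0.585% of all genes) and TTTCCCGC for Msh6 and Xrcc6 (1.24% of all genes). The shares of all genes include genes that did not pass the filter. Shares among genes that passed it were not computed, so these values do not show that the motifs are particular to repair genes. All motifs were searched on both strands, and matches of different motifs may overlap. Medians with and without a motif were -0.0044 and -0.033 for the GC box, -0.094 and 0.045 for CCAAT, -0.036 and -0.028 for ETS and 0.041 and -0.079 for NRF1. These differences between lists were not tested. The promoter of Rad23b, the repair gene with the highest difference, is shown by the 150 bases before its start, with a CCAAT box and a GC box in capitals.
Rad23b, chr4:55349892-55350041 (+): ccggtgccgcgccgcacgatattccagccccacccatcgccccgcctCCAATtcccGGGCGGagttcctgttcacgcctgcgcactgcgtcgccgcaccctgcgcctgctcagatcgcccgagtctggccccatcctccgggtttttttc

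Some repair genes start close to a neighbour that is transcribed away from them, and such pairs share 1 stretch of promoter. Within 500 bases, 14 of the 36 repair genes with a promoter window had such a partner (38.9%), beside 10.9% of all genes with a window. Among genes that passed the filter, the shares were 40.0% of 30 repair genes and 17.8% of all 8805 genes. In 9 pairs both genes passed the filter, and in 5 of these (55.6%) both differed in the same direction, beside 49.2% of all 465 such pairs. Nthl1 and Tsc2, which encodes tuberin, a brake on mTOR signalling, start with 54 bases between them. Nthl1 was lower by 0.36 on the log2 scale (7.46 and 7.10), whereas Tsc2 stood at 9.45 and 9.54 (0.084). Nudt1 has several annotated starts. The outermost faces Mad1l1, which encodes a spindle checkpoint protein and stood at 7.88 and 8.0 (0.11), and a start further in faces Mrm2, which encodes a methyltransferase of mitochondrial ribosomal RNA and stood at 6.80 and 6.56 (-0.24). The probe set gives no value per start of Nudt1.

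The pairs with the closest differences were Cetn2 and Nsdhl, at 0.15 each, and Ercc8 and Ndufaf2, at -0.15 and -0.22. Nsdhl encodes an enzyme of cholesterol synthesis, and Ndufaf2 an assembly factor of respiratory complex I. The remaining 4 pairs were Gtf2h1 and Hps5 (0.25 and -0.0082), Gtf2h3 and Eif2b1 (0.24 and 0.069), Gtf2h5 and Serac1 (-0.28 and -0.074) and Xrcc6 and Desi1 (-0.11 and 0.10). The DNA between the starts is shown for the pairs with the widest and the narrowest gaps between the differences of the partners, and for Gtf2h5 and Xrcc6, which have a telomere repeat there, with matches of the motifs above in capitals, on the strand of the repair gene.
Nthl1 and Tsc2, chr17:24632628-24632681 (+): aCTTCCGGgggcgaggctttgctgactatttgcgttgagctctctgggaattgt
Nudt1 and Mad1l1, chr5:140321553-140321621 (+): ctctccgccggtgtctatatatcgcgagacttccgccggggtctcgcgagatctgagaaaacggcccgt
Cetn2 and Nsdhl, chrX:72918345-72918520 (-): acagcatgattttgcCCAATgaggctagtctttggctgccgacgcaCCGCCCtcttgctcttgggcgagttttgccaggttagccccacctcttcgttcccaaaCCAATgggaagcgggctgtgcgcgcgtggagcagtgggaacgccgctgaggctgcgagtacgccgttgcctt
Ercc8 and Ndufaf2, chr13:108158626-108158737 (+): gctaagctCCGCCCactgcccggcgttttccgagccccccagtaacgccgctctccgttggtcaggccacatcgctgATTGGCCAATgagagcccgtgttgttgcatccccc
Gtf2h5 and Serac1, chr17:6079740-6079827 (+): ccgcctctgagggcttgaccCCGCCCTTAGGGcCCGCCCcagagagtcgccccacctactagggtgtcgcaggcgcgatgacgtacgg
Xrcc6 and Desi1, chr15:82016221-82016368 (+): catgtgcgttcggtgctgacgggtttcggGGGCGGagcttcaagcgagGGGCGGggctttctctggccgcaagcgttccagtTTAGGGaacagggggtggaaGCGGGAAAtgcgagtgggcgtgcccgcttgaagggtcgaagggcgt

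**Figure D4:**
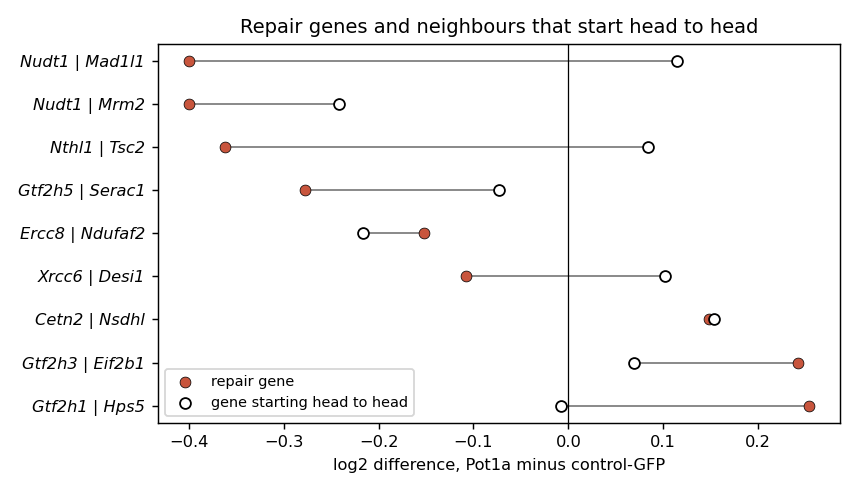
Log2 difference (Pot1a minus control-GFP, horizontal axis) of repair genes (filled circles) and of the genes that start within 500 bases on the other strand (open circles) for the 9 pairs in which both passed the filter; grey lines join the genes of a pair and the vertical line is 0. Nthl1 and Tsc2 lie on opposite sides of 0, and Cetn2 and Nsdhl nearly coincide.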

How the data were processed

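The data are 1 array of control-GFP and 1 array of Pot1a-transduced LT-HSCs. For each array, the authors deposited linear normalized intensities of 34365 probe sets (medians 53.1 and 52.6). The published methods describe RMA with quantile normalization in Expression Console for other arrays, those of aged cells. Whether these arrays were treated alike, or centred, is not given in the sources used here. Log2 was taken, and gene symbols came from the platform annotation, where 23521 probe sets have 1 symbol, 1820 several and 9024 none. All 33 measured symbols of repair genes were, by Entrez ID, also the symbols of the RefSeq table (GRCm38.p6). The probe set with the highest mean stood for a gene. Genes whose mean over both arrays was at or above the median of all genes were kept.

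All 38 repair genes were to be named. Of the other genes of the pathways, those past the fold threshold (0.32 on the log2 scale), the TFIIH kinase module and Trp53bp1 were to be named. The members, lists and thresholds were chosen with earlier results of these data known. No test was made, as each condition has 1 array. Alternatives were the mean of probe sets, other filters, centring, correction for the trend with expression (loess, fraction 0.3), the mean in place of the median, and 1.5-fold. The counting steps were tested on simulated data. Calculations ran in Python 3.11.15 with matplotlib 3.10.9, statsmodels 0.14.6, pandas 2.3.3 and numpy 2.4.6.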

Additional observations from a re-analysis of the deposited data

How the results depend on the processing

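No paired analysis was possible because there was a single array of either kind, and none could be left out. No repair gene has a second probe set of its own, so averaging probe sets left the values of all 32 repair genes kept as they were. Correction for the trend with expression changed the sign of 0 of these 32, and neither it nor centring moved one of them by more than 0.027. Lig4, which did not pass the filter, was not part of these fits. The median of mismatch repair, -0.0030, was 0.016 after that correction. With a filter at the 75th percentile, which left 19 repair genes, the median of mismatch repair was -0.29, resting on Msh6 alone. That of base excision repair was -0.060 over 6 genes, that of end joining -0.065 over 2 and that of nucleotide excision repair 0.0775 over 10. At this filter, 0 genes were lower past the fold threshold, beside 3.23% of all genes, since Nudt1 and Nthl1 were not kept. Still, 1 was higher, beside 3.21%. At 1.5-fold, 0 repair genes were lower and 0 higher, beside 0.352% and 0.397% of all genes. Without a filter, 9.46% of all genes were lower past the fold threshold and 7.18% higher, beside 2 and 1 of 33 repair genes. No detection calls were used, and Lig4, Xrcc4, Neil1, Pms2 and Xpa had the lowest means of the repair genes.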

Other observations

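Genes with a longer genomic span had a slightly higher difference over all genes kept with a span (Spearman's rho 0.16 over 11042 genes, which are not independent replicates and were read on the same 2 arrays). Over the 32 repair genes kept, rho was 0.10, and the median span was 23.2 kb for the 18 lower genes and 26 kb for the 14 higher genes. The part of gene length in the differences was not tested.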
